A study of Mus musculus with 10 samples.

Results

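The interferon response genes described here are 40 named mouse genes that interferons are known to raise or that process antigen for display at the cell surface. They were taken as a list of symbols, chosen with earlier results of these data known, and matched to the Ensembl IDs of the count table. Of the 40, 39 had a row among the 36191 gene IDs of the table, and Psmb9 was not analysed here because no row matched it. The RNA came from cultures labelled Rybp null mutant and wild type, both on a 129x1 x 129S1 strain background. RYBP is a subunit of variant Polycomb repressive complexes, which silence developmental genes. Embryonic stem (ES) cells at day 0 were sequenced in 1 library per genotype, and cultures taken through hanging-drop embryoid bodies toward the heart lineage in 2 libraries per genotype at day 8 and 2 at day 14. The labels name neither the clone of each genotype nor separate cultures for the replicates, so p-values measure the spread between these libraries, which may be technical.

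Rybp itself, which checks the labels, had between 1 and 4 counts in each of the 5 null libraries, against 64 to 231 in each wild type library. Library totals ran from 3028153 to 6890792 counts. Levels are in CPM, a gene's counts scaled to the library's size after TMM normalization, and 3 counts were worth between 0.508 and 0.990 CPM, so levels of a few CPM rest on a small number of reads. Among 8 cardiomyocyte markers, Tnnt2 averaged 46.2 ± 36.5 CPM over the day 8 null libraries and 492 ± 39.5 CPM over those of wild type (SD, n = 2 each), and Nkx2-5 had no more than 1 count in any group of libraries. The 8 markers summed to 105 and 59.0 CPM in day 8 null libraries, against 2537 and 2087 CPM in day 8 wild type libraries. These are bulk libraries, in which fewer cells of a type and less RNA per cell cannot be told apart.

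Interferons are secreted proteins that cells release when receptors inside them meet foreign nucleic acid. Type I interferons bind the receptor pair IFNAR1 and IFNAR2, the kinases JAK1 and TYK2 are switched on, and a complex that holds STAT2 and IRF9 binds interferon-stimulated response elements (ISREs) in promoters. Type II interferon acts through its own receptor and gamma-activated sites (GAS). The genes so raised bind, cut or modify viral RNA, block entry, carry the ubiquitin-like tag ISG15 and load peptides onto class I histocompatibility molecules, while pluripotent cells are known to respond weakly to interferon.

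RefSeq promoters on the GRCm38.p6 build, each 250 bases before to 50 after a gene's start, were in hand for 31 of the 39 members. The ISRE letters, GAAA then any 2 bases then GAAA, were searched on both strands with overlapping matches counted apart. A gene counted once if any of its promoters held a match. They were present in 15 of the 31 (48.4%), against 3.99% of all 27025 genes with a promoter. The GAS letters TTCNNNGAA, searched in the same way, were present in 9 of the 31 (29.0%), against 9.55% of all genes with a promoter. Both motifs occurred in Bst2, Eif2ak2, Ifitm3 and Oas1a. The 150 bases before the start are shown for 6 members, 5′ to 3′ on the gene's strand, because they cover the patterns described below: Ifit1, Isg15 and B2m were higher at day 14 than at day 8 in null cultures, Rsad2 had no counts in ES cells and was present at day 8 in both genotypes, Oas3 was high in ES cells, and Oasl2 spanned a wide range of levels and held no match in its table window. Capitals mark ISRE matches.
Ifit1, chr19:34640739-34640888, plus strand: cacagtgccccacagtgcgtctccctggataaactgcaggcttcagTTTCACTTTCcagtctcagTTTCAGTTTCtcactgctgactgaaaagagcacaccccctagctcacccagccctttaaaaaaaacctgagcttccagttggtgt
Isg15, chr4:156200819-156200968, minus strand: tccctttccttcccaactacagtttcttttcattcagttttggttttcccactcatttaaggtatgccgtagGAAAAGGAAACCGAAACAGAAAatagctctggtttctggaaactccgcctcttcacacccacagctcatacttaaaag
Rsad2, chr12:26456453-26456602, minus strand: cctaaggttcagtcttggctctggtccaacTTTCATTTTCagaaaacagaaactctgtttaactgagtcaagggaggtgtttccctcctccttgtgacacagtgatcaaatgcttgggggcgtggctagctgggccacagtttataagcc
B2m, chr2:122147537-122147686, plus strand: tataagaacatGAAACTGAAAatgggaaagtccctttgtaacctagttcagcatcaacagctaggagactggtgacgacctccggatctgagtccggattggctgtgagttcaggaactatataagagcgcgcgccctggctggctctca
Oas3, chr5:120777660-120777809, minus strand: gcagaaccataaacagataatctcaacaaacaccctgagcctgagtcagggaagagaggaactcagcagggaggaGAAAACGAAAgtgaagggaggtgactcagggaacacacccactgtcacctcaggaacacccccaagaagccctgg
Oasl2, chr5:114896784-114896933, plus strand: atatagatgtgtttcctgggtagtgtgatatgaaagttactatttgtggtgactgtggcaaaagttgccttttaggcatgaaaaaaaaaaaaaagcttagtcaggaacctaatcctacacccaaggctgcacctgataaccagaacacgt
Ifit1 held 2 separate matches, Isg15 a run of 3 overlapping ones, and Rsad2, B2m and Oas3 held 1 each. Of the 14 members that rose between days 8 and 14 in null cultures and had a promoter, 9 held an ISRE match, as did 6 of the other 17. A match describes letters only and was not tested as a binding site.

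In each group a small number of members carried most of the RNA. Per kilobase of exon, Ifitm3, which blocks viral entry, B2m, the light chain of class I molecules, and Trim25, a ubiquitin ligase that acts on the sensor RIG-I, were the 3 highest of the 39 in all 6 groups. In day 14 null cultures their means were 183, 176 and 39.6 CPM per kilobase, and the order of Ifitm3 and B2m was within the spread of their libraries. The next was Oasl2 at 30.0 CPM per kilobase in day 14 null cultures, while it ranked 6 at 7.19 CPM per kilobase in day 14 wild type cultures. Both ES cell libraries lacked counts for 9 members: Ifit1, Isg15, Usp18, Rsad2, Mx2, Ifi35, Ifi44, Ifi27l2a and Cxcl10. Cxcl10, Dhx58, Ifi27l2a and Oasl1 were too low for the test, with at most 8 counts in any library, so 35 members were tested among 15819 genes.

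**Figure D1:**
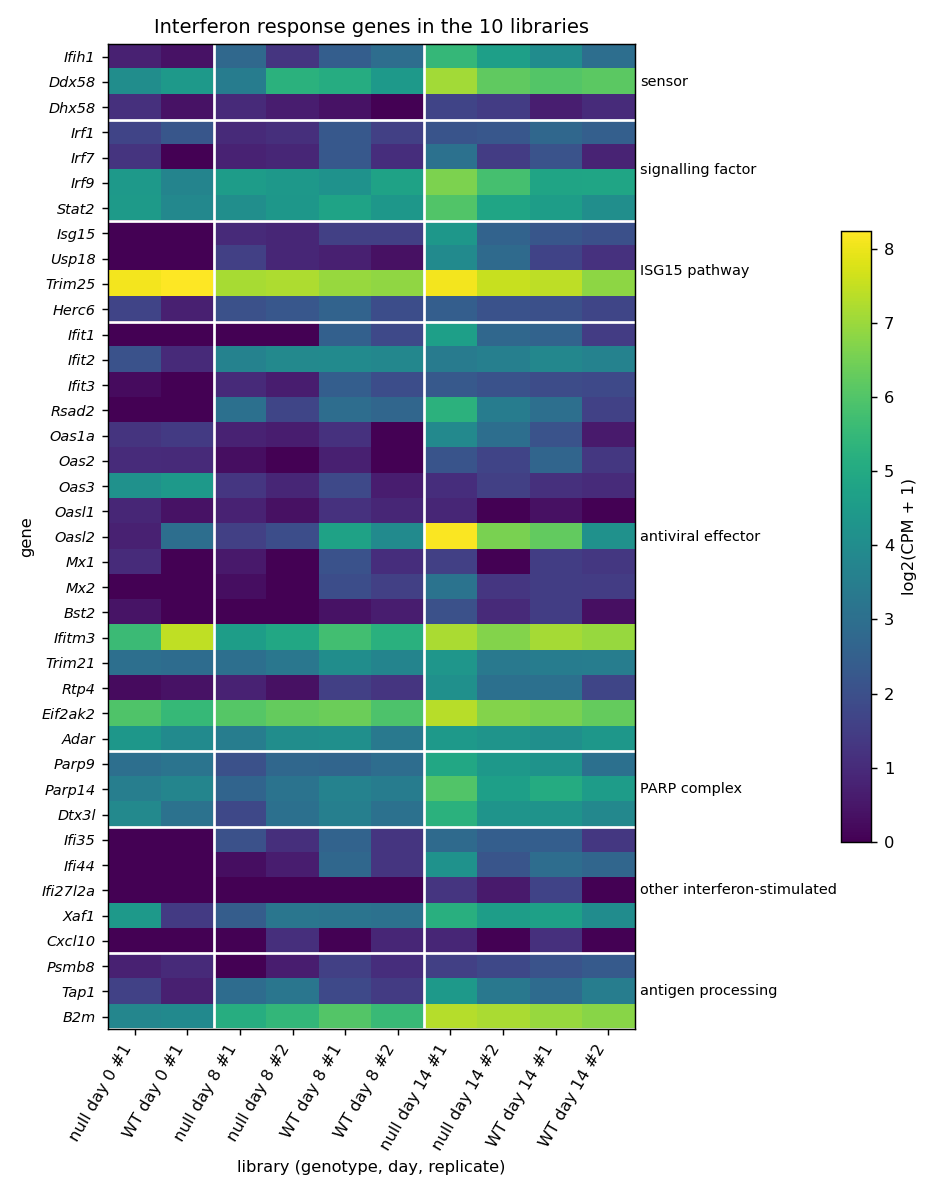
Level of the 39 matched members (rows, grouped by role) in the 10 libraries (columns), as log2(CPM + 1) from dark (0) to light. Oasl2, Ifit1, Rsad2 and Rtp4 are lightest in the first day 14 Rybp null library, and Ifitm3, B2m and Trim25 are light in nearly every column.

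Between days 8 and 14 many interferon response genes rose in Rybp null cultures. The share called differed by role, from 1 of 3 antigen processing genes to 3 of 3 PARP complex genes. With edgeR's quasi-likelihood test and Benjamini-Hochberg adjustment over all tested genes, 19 of the 35 tested members were called higher at day 14 than at day 8 in null cultures (adjusted p under 0.05) and 0 lower, where 4.29% of all tested genes were called higher and 3.41% lower (7.69% in either direction). Over the 35 the median log2 fold change was 2.25, against -0.01 for all tested genes, and 34 of the 35 were positive. The day 14 null libraries lay above both day 8 null libraries for 33 of the 39 members, where 23.7% of tested genes did so, and below them for Ifit2 alone, where 22.9% did. In this count and the like ones below, the 39 include 4 members too low for the test, while the shares are of tested genes only. In wild type cultures 2 of the 35, Ifitm3 and B2m, were called higher at day 14 than at day 8 and 0 lower (2.47% and 1.57% of tested genes, 4.04% in either direction), with a median of 0.78 and 23 of the 35 positive. B2m lost its wild type call without any one of the first day 8, first day 14 or second day 14 wild type libraries (1 call left each time), and without the second day 8 wild type library 0 were left. The day 14 wild type libraries lay above both day 8 wild type libraries for 17 of the 39 (26.3% of tested genes) and below them for 4 (25.1%). A gene high in a single group can pass the filter on low counts, so the tested members do not stand for the whole list. The list was also chosen with earlier results of these data known, so the shares of all genes are given for scale and are not a test of the list.

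**Figure D2:**
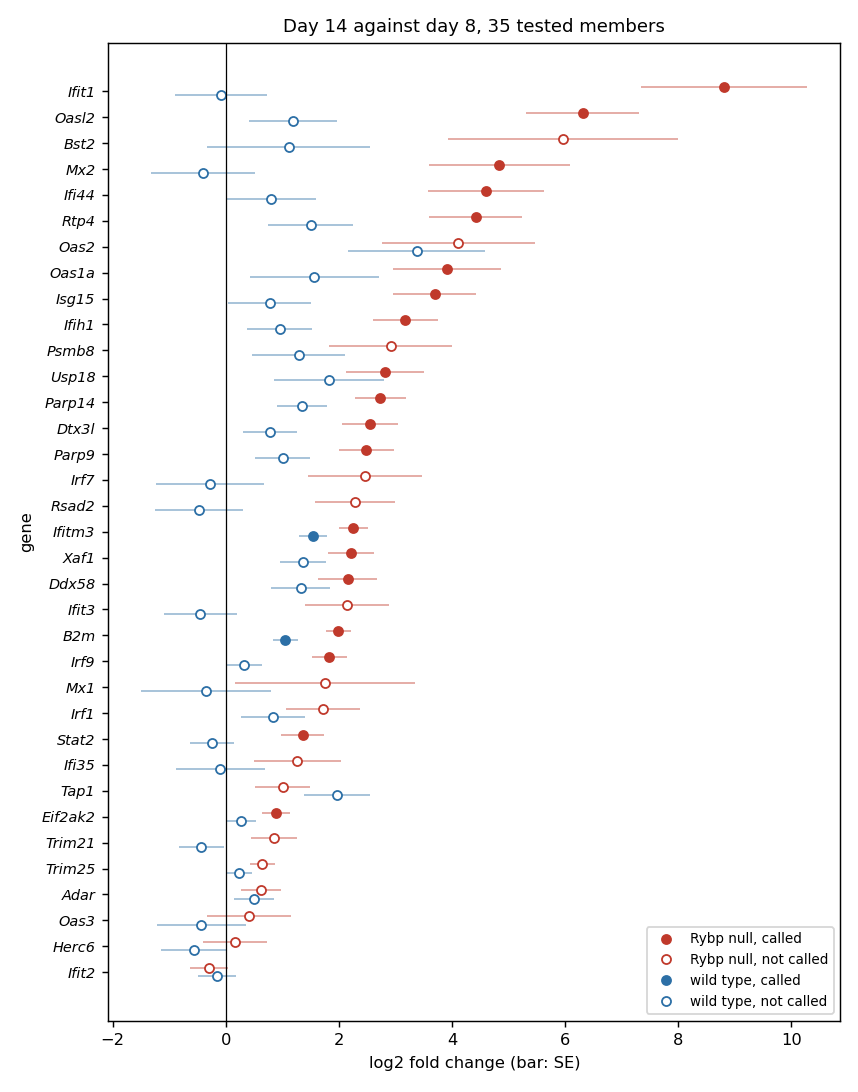
Log2 fold change of day 14 over day 8 (points, with SE bars) for the 35 tested members in Rybp null and in wild type cultures, ordered by the null value. Filled points are called at an adjusted p under 0.05, which holds for 19 members in null and 2 in wild type cultures, and Ifit1 had no counts in the day 8 null libraries, so its point depends on the fit's prior count.

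Both tested sensors of viral RNA rose in null cultures. Ifih1, which encodes MDA5, was at 43.4 and 24.2 CPM in null libraries at day 14, against 5.80 and 1.44 CPM at day 8. Its wild type libraries held 15.2 and 6.89 CPM at day 14, against 4.47 and 6.76 CPM at day 8. Both day 14 null libraries stood above every other library of the series, and the null change passed the test (log2 fold change 3.17 with SE 0.57, adjusted p = 0.00561). Ddx58, which encodes RIG-I, was at 135 and 73.9 CPM in null libraries at day 14 and 9.91 and 37.4 CPM at day 8, and at 64.2 and 69.9 CPM at day 14 against 32.9 and 20.9 CPM at day 8 in wild type libraries. The day 8 null libraries of Ddx58 were far apart, and its call (log2 fold change 2.15 with SE 0.52, adjusted p = 0.0374) was among those lost in some alternative fits. Dhx58, which encodes the regulator LGP2, held 8 and 7 counts in null libraries at day 14 and 4 and 2 at day 8, too few to be tested.

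Of the 4 signalling factors, Irf9 and Stat2 rose in null cultures. Irf9, the DNA-binding subunit of the complex with STAT2, was at 96.6 and 54.6 CPM in null libraries at day 14, against 22.2 and 20.1 CPM at day 8. Irf9 in wild type libraries was at 26.8 and 27.6 CPM at day 14, against 17.2 and 25.9 CPM at day 8. The null libraries separated without overlap and the change passed (log2 fold change 1.83 with SE 0.31, adjusted p = 0.00391), while the wild type libraries stayed within a narrow band (log2 fold change 0.33, adjusted p = 0.692). Stat2 was at 63.3 and 27.7 CPM in null libraries at day 14 and 15.96 and 19.6 CPM at day 8, and at 22.8 and 15.8 CPM at day 14 against 26.5 and 19.4 CPM at day 8 in wild type libraries. Its null call sat at the threshold (log2 fold change 1.35 with SE 0.38, adjusted p = 0.0491). Irf7, the factor that amplifies interferon production, had 26 and 7 counts in null libraries at day 14 and 3 and 3 at day 8, and 11 and 3 at day 14 against 12 and 4 at day 8 counts in wild type libraries. At these counts Irf7 missed the test (log2 fold change 2.45 with SE 1.01, adjusted p = 0.174). Irf1, a transcription factor of the interferon response, averaged 3.54 ± 0.232 CPM in null cultures at day 14 and 1.06 ± 0.130 CPM at day 8 (SD, n = 2 each), and was not called (adjusted p = 0.137). Exons of Irf9 overlap those of Rnf31 on the same strand in the GENCODE annotation, so reads of the pair could be shared.

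Of the ISG15 pathway, the tag and the protease that removes it rose. Isg15 was at 19.4 and 5.19 CPM in null libraries at day 14, against 0.967 and 0.863 CPM at day 8 (log2 fold change 3.69 with SE 0.74, adjusted p = 0.00958). Its wild type libraries were at 3.65 and 3.06 CPM at day 14 and 1.92 and 1.97 CPM at day 8. Usp18, the ISG15 protease that also restrains IFNAR2, was at 14.4 and 6.18 CPM in null libraries at day 14, against 1.93 and 0.863 CPM at day 8 (log2 fold change 2.81 with SE 0.69, adjusted p = 0.0268). Usp18 in wild type libraries held 7 and 5 counts at day 14 and 2 and 1 at day 8. For both genes the first day 14 null library stood highest by a wide margin. Trim25 was at 269 and 187 CPM in null libraries at day 14 and 143 and 149 CPM at day 8, a change that missed the threshold (log2 fold change 0.64 with SE 0.22, adjusted p = 0.106). In wild type Trim25 was at 169.7 and 113 CPM at day 14 and 124 and 115 CPM at day 8. Herc6, the main ISG15 ligase of the mouse, averaged 3.86 ± 0.913 CPM in null cultures at day 14 and 3.44 ± 0.423 CPM at day 8 (SD, n = 2 each; adjusted p = 0.919).

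The antiviral effectors gave the widest ranges, and 7 of the 16 tested rose in null cultures. Oasl2, an oligoadenylate synthetase-like protein, reached 287 and 94.7 CPM in null libraries at day 14, against 1.93 and 2.88 CPM at day 8. Wild type libraries held 74.8 and 16.8 CPM of Oasl2 at day 14, against 25.9 and 14.4 CPM at day 8. Each null library at day 14 exceeded every other library, the first well above the second (log2 fold change 6.31 with SE 1.01, adjusted p = 0.0113). The call of Oasl2 was lost when either day 8 null library was left out, and with no filter on low counts. Ifit1, which binds viral RNA lacking cap methylation, had 85 and 23 counts in null libraries at day 14 and 0 in both at day 8. That is at least 36.1-fold higher, taking a floor of 3 counts over the day 8 libraries together (adjusted p = 0.00424). Wild type libraries held 17 and 7 counts of Ifit1 at day 14 and 15 and 9 at day 8, so its wild type groups overlapped.

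Rtp4, a regulator of the response to RNA viruses, was at 16.6 and 7.17 CPM in null libraries at day 14, against 0.725 and 0.288 CPM at day 8 (log2 fold change 4.42 with SE 0.82, adjusted p = 0.00648). In wild type libraries it was at 7.30 and 2.30 CPM at day 14 and 1.92 and 1.41 CPM at day 8, also without overlap but not called (adjusted p = 0.348). Oas1a, an oligoadenylate synthetase that senses double-stranded RNA, held 49 and 28 counts in null libraries at day 14 and 3 and 2 at day 8 (log2 fold change 3.91 with SE 0.96, adjusted p = 0.027), and 11 and 2 at day 14 against 4 and 0 at day 8 in wild type libraries. Mx2, a dynamin-like GTPase, held 28 and 6 counts in null libraries at day 14 and 1 and 0 at day 8. The pooled ratio of Mx2 rests on a single day 8 count, 34.1-fold with a 95% counting interval of 5.71 to 1384, and its fit was called at an adjusted p of 0.0346. In wild type libraries Mx2 held 6 and 7 counts at day 14 and 9 and 7 at day 8, with no rise. Oas1a and the Mx and Ifit genes have close copies whose reads the counting may have split.

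The abundant effectors changed by less but with small errors. Ifitm3 was at 146 and 102 CPM in null libraries at day 14 and 22.7 and 29.6 CPM at day 8 (log2 fold change 2.25 with SE 0.26, adjusted p = 0.000371). In wild type it was at 138 and 123 CPM at day 14 and 53.0 and 36.4 CPM at day 8 (log2 fold change 1.54 with SE 0.25, adjusted p = 0.00466). Ifitm3 therefore rose in both genotypes, to levels at day 14 that overlapped between them. Eif2ak2, the kinase PKR that halts translation on double-stranded RNA, was at 160.5 and 104 CPM in null libraries at day 14 and 66.0 and 76.8 CPM at day 8, and at 95.5 and 77.9 CPM at day 14 against 83.0 and 60.3 CPM at day 8 in wild type. The null groups did not overlap, and the call was near the threshold (log2 fold change 0.89 with SE 0.25, adjusted p = 0.0482). Rsad2, the radical enzyme viperin, was at 37.7 and 9.89 CPM in null libraries at day 14 and 7.25 and 2.30 CPM at day 8, and missed the test (log2 fold change 2.28 with SE 0.71, adjusted p = 0.0757). Wild type libraries held 6.995 and 2.04 CPM of Rsad2 at day 14 and 6.71 and 5.64 CPM at day 8.

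The remaining effectors were not called between days 8 and 14 in null cultures. Ifit2, a partner of Ifit1, was the single negative value, with 9.85 and 10.6 CPM at day 14 and 11.6 and 13.5 CPM at day 8 in null libraries (log2 fold change -0.29 with SE 0.34, adjusted p = 0.686), and 13.1 and 11.5 at day 14 against 14.4 and 13.0 at day 8 CPM in wild type libraries. Ifit3 held 14 and 13 counts in null libraries at day 14 and 4 and 2 at day 8, and 9 and 10 at day 14 against 14 and 10 at day 8 in wild type libraries (adjusted p = 0.106 in null cultures). Neighbours on chromosome 19 thus differed: Ifit1 had no counts where Ifit2 was near its highest. Oas3 held 4 and 8 counts in null libraries at day 14 and 6 and 3 at day 8, low in all. Bst2, which tethers budding virus at the membrane, held 11 and 4 counts at day 14 and none at day 8 in null libraries, at least 5.01-fold higher on the same floor but not called (adjusted p = 0.106). Oas2, Mx1, Trim21 and Adar had adjusted p-values of 0.0871, 0.593, 0.253 and 0.342 in null cultures, and Oasl1 had at most 5 counts in any library.

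All 3 genes of the PARP9 complex, which modifies histones and ubiquitin and raises interferon-stimulated transcription, rose in null cultures. Parp14, an ADP-ribosyltransferase, was at 62.8 and 24.0 CPM in null libraries at day 14 and 5.32 and 7.77 CPM at day 8 (log2 fold change 2.73 with SE 0.45, adjusted p = 0.0033). In wild type libraries Parp14 was at 32.2 and 22.2 CPM at day 14 and 11.5 and 9.86 CPM at day 8, without overlap, but was not called (adjusted p = 0.122). Parp9 was at 29.8 and 19.8 CPM in null libraries at day 14 and 3.14 and 5.76 CPM at day 8 (log2 fold change 2.49 with SE 0.49, adjusted p = 0.00865). Dtx3l, the ubiquitin ligase that pairs with PARP9, was at 37.4 and 18.0 CPM at day 14 and 2.42 and 7.19 CPM at day 8 (log2 fold change 2.55 with SE 0.50, adjusted p = 0.00909). In wild type libraries Parp9 was at 17.6 and 7.15 CPM at day 14 and 5.43 and 6.76 CPM at day 8. Dtx3l in wild type libraries was at 17.9 and 13.3 CPM at day 14 and 10.9 and 7.33 CPM at day 8. For all 3 genes both day 14 null libraries lay above both day 8 null libraries. Parp9 and Dtx3l overlap on opposite strands, and the strand setting of the counting is not given in the sources used here, so their reads cannot be told apart where they overlap.

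Among the other interferon-stimulated genes, Xaf1, an antagonist of the caspase inhibitor XIAP, was at 35.5 and 22.99 CPM in null libraries at day 14 and 4.35 and 8.35 CPM at day 8 (log2 fold change 2.21 with SE 0.40, adjusted p = 0.00577). Wild type libraries held 24.6 and 15.1 CPM of Xaf1 at day 14 and 7.99 and 7.33 CPM at day 8 (adjusted p = 0.0884). Ifi44 held 62 and 14 counts in null libraries at day 14 and 1 and 2 at day 8, a pooled ratio of 25.4 with a 95% counting interval of 8.36 to 125.8 (adjusted p = 0.0165). Wild type libraries held 22 and 22 counts of Ifi44 at day 14 and 18 and 5 at day 8, a pair of days that overlapped in CPM. Ifi35 held 22 and 18 counts at day 14 and 13 and 4 at day 8 in null libraries (adjusted p = 0.384), and 15 and 6 at day 14 against 16 and 5 at day 8 in wild type libraries. The chemokine gene Cxcl10 and Ifi27l2a had at most 7 counts in any library.

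Of the antigen processing genes, B2m rose in both genotypes. B2m was at 159 and 145 CPM in null libraries at day 14 and 33.9 and 42.6 CPM at day 8 (log2 fold change 1.99 with SE 0.22, adjusted p = 0.000362). B2m in wild type libraries was at 123 and 108 CPM at day 14 and 64.8 and 46.8 CPM at day 8 (log2 fold change 1.05 with SE 0.22, adjusted p = 0.0185). Tap1, a subunit of the peptide transporter, was at 21.1 and 8.90 CPM in null libraries at day 14 and 6.53 and 8.35 CPM at day 8, and at 6.39 and 10.2 CPM at day 14 against 2.56 and 1.69 CPM at day 8 in wild type libraries. Neither Tap1 change was called (adjusted p = 0.256 in null and 0.0884 in wild type cultures). Psmb8, an immunoproteasome subunit, held 7 and 10 counts at day 14 and 0 and 2 at day 8 in null libraries, and 11 and 16 at day 14 against 6 and 4 at day 8 in wild type libraries, the wild type counts being higher at day 14. Tap1 and Psmb9 overlap on opposite strands, so some Tap1 reads may belong to Psmb9.

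**Figure D3:**
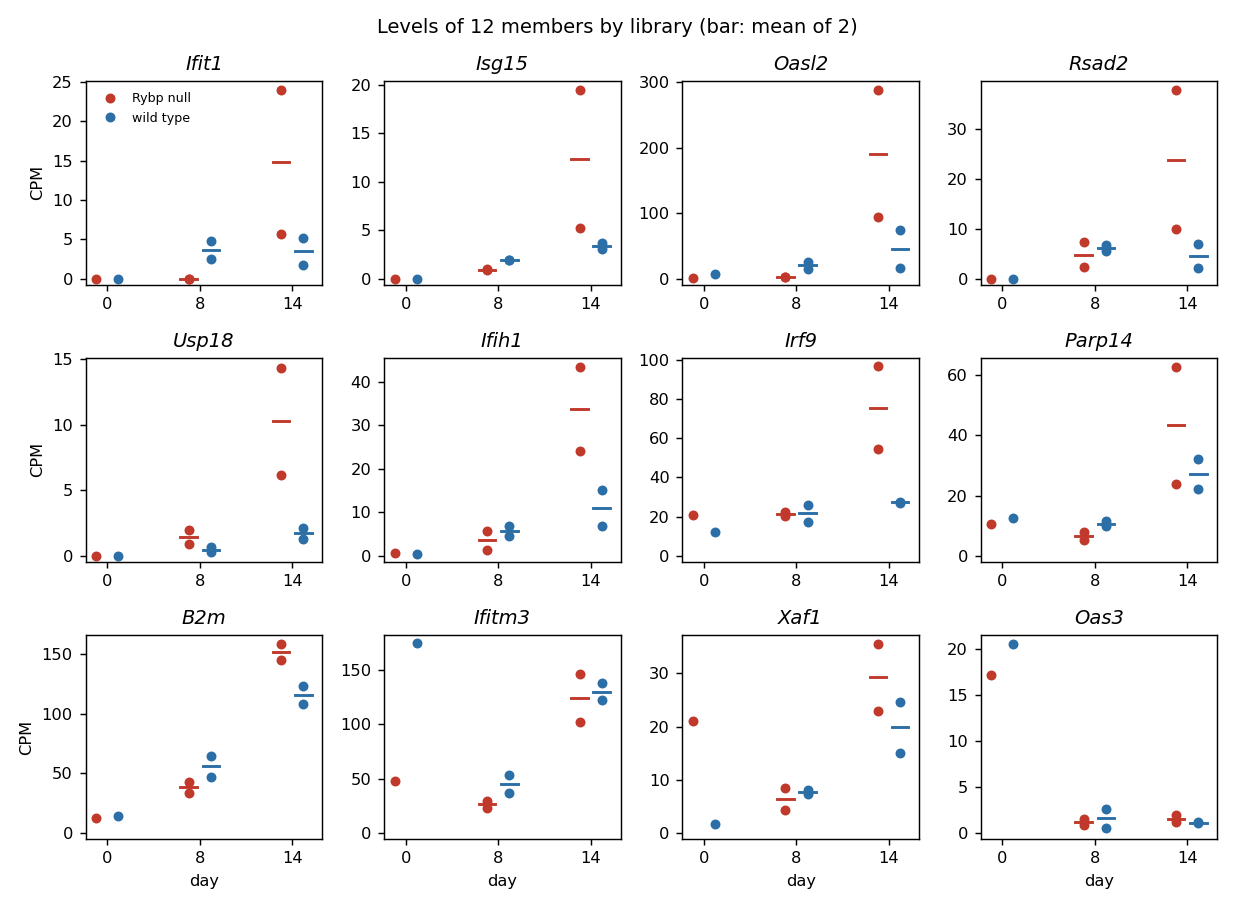
CPM of 12 members in each library by day, for Rybp null (left of each pair) and wild type, with a bar at the mean where there are 2 libraries. For Oasl2, Usp18, Ifih1 and Irf9 both day 14 null libraries lie above all other libraries, while Oas3 is high only at day 0 and Ifitm3 is highest in wild type ES cell library.

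The rise in null cultures was not evenly spread over the libraries. In the first day 14 null library 31 of the 35 tested members were higher than in the second, by a median of 0.86 on the log2 scale, where 50.5% of all tested genes were higher in the first. Wild type showed the same lean, with 29 of 35 members higher in the first day 14 library (median 0.34, 47.4% of tested genes) and 30 of 35 higher in the first day 8 library (median 0.53, 47.5%). In day 8 null cultures the count was 13 of 35. Without the first day 14 null library, 10 members were called higher in null cultures, and without the second day 8 null library, 12 were. The 9 called with any single day 8 or day 14 library left out were B2m, Ifih1, Ifit1, Ifitm3, Irf9, Parp14, Parp9, Rtp4 and Xaf1. What sets the first library apart was not tested.

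Null and wild type cultures at the same day differed less clearly. At day 8 the members leaned lower in null cultures: 30 of the 35 had a negative log2 fold change, with a median of -0.60 (-0.55 with the fold of Ifit1 set to its bound and 2 members with too few counts for a fold left out), against 0.01 for all tested genes. None was called by edgeR's quasi-likelihood test, where 1.26% of all tested genes were called (0.506% higher, 0.759% lower). At an unadjusted p under 0.05, 7 members were lower and 1, Tap1, was higher, where 13.4% of all tested genes passed in either direction, and DESeq2 called 1, Ifit1. Both null libraries lay below both wild type libraries for 18 of the 39 members (20.9% of tested genes) and above them for 4 (21.1%), which were Dhx58, Tap1, Trim25 and Usp18.

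Ifit1 had the lowest p at day 8, with 0 counts in both null libraries and 15 and 9 in wild type, at least 9.12-fold lower in null cultures (adjusted p = 0.0903). Oasl2 was at 1.93 and 2.88 CPM in null libraries against 25.9 and 14.4 CPM in wild type libraries at day 8, without overlap (log2 fold change -3.06 with SE 1.05, adjusted p = 0.264). Ifit3, Mx2 and Ifi44 were lower in the same way, with adjusted p-values of 0.213, 0.208 and 0.241. Tap1 ran the other way, at 6.53 and 8.35 CPM in null libraries against 2.56 and 1.69 CPM in wild type libraries (log2 fold change 1.80 with SE 0.59, adjusted p = 0.182). Irf9, Eif2ak2, Adar and Ifit2 differed by less than 0.2 on the log2 scale at day 8.

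At day 14 the lean was the opposite: 29 of the 35 members had a positive log2 fold change of null over wild type, with a median of 0.75 against -0.01 for all tested genes. Again none was called, where 0.613% of tested genes were (0.259% higher, 0.354% lower). At an unadjusted p under 0.05, 12 members were higher in null cultures and 0 lower, where 12.9% of all tested genes passed in either direction, and DESeq2 called 1, Irf9. Both null libraries lay above both wild type libraries for 18 of the 39 members (20.9% of tested genes) and below them for 3, Ifit2, Irf1 and Psmb8 (22.8%). Irf9 came nearest to the threshold, at 96.6 and 54.6 CPM in null libraries against 26.8 and 27.6 CPM in wild type libraries (log2 fold change 1.47 with SE 0.31, adjusted p = 0.0548). Usp18 was 5.98-fold higher in the fit (log2 fold change 2.58 with SE 0.68, adjusted p = 0.116), Rsad2 5.32-fold (adjusted p = 0.169) and Oas1a 5.46-fold (adjusted p = 0.219). Stat2, Ifih1, Isg15, Ifit1 and Oasl2 had log2 fold changes between 1.24 and 2.10, with adjusted p-values between 0.171 and 0.295. The groups of Ifitm3 overlapped (log2 fold change -0.07 with SE 0.24, adjusted p = 0.967), and those of B2m did not, with a 1.31-fold higher level in null cultures that was not called (adjusted p = 0.486).

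**Figure D4:**
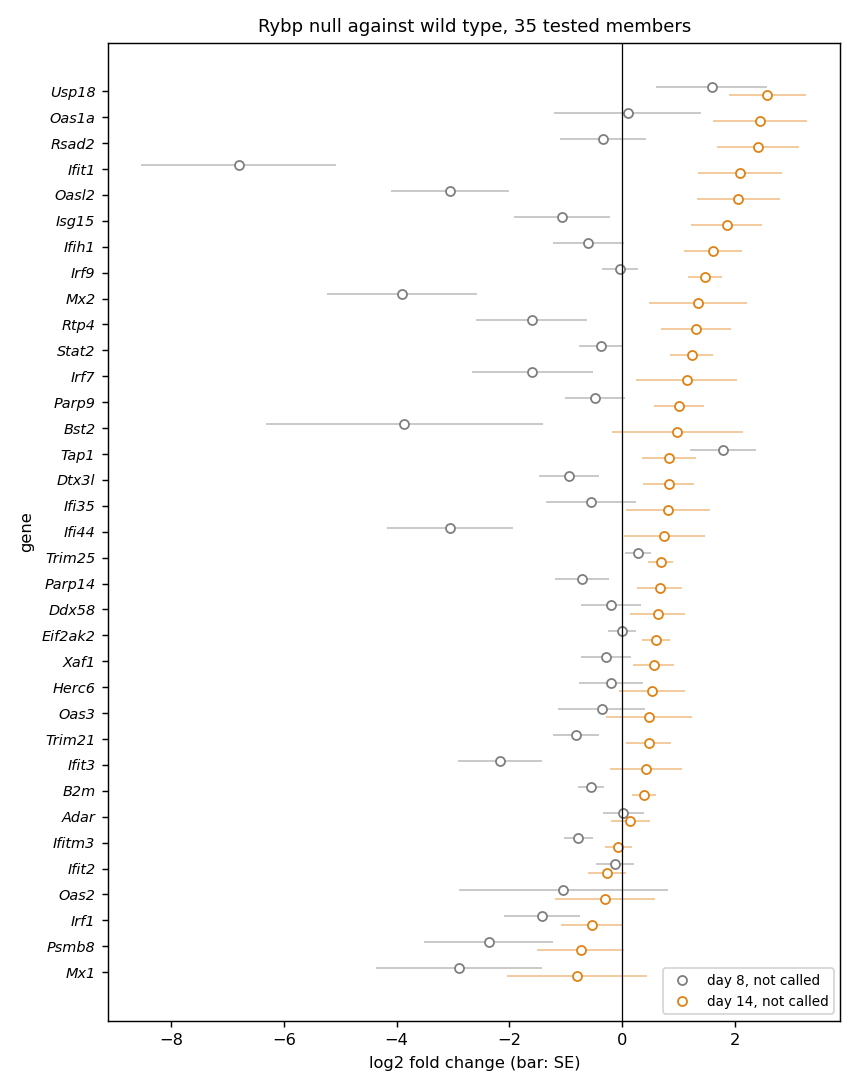
Log2 fold change of Rybp null over wild type (points, with SE bars) for the 35 tested members at day 8 and at day 14, ordered by the day 14 value. No point is called, most day 8 points lie left of 0 and most day 14 points right of it, and the day 8 point of Ifit1 rests on null libraries with no counts.

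The sign thus differed between days for most members. Of the 35, 24 were negative at day 8 and positive at day 14, a pattern of 17.3% of tested genes, 5 were positive at both days, 6 negative at both, and 0 went the other way (20.8% of tested genes). The test of this difference itself, the genotype-by-day interaction, called 0 members and 0% of the tested genes. At an unadjusted p under 0.05 it gave 15 members with a larger change in null cultures and 0 with a smaller one, where 6.08% of tested genes passed in either direction, and DESeq2 called 0 members. The lowest adjusted p was 0.388, for Ifit1, and 33 of the 35 changes were larger in null cultures, with a median difference of 1.48 on the log2 scale. In 6 members, B2m, Dtx3l, Ifit1, Ifit3, Isg15 and Oasl2, both null libraries were below both wild type libraries at day 8 and above both at day 14, which held for 1.95% of tested genes. Averaged over both days the members had no common direction: the median was -0.02 and 0 were called (4.41% of tested genes, 2.33% higher and 2.08% lower), with adjusted p-values of 0.069, 0.0719 and 0.0906 for Usp18, Tap1 and Irf9. At an unadjusted p under 0.05 the average gave 4 higher and 3 lower members, a share near the 18.3% of all tested genes that passed, and DESeq2 called 0.

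Usp18, Herc6, Bst2 and Irf9 lie on chromosomes 6, 8 and 14. Tested genes on chromosomes 1, 6, 8 and 14 had a median log2 fold change of null over wild type of 0.30 at day 8 and 0.28 at day 14, against -0.03 and -0.06 for the other genes. These chromosomes were named by hand, for a reason not recorded here, so their medians are a description and not a test. The 31 tested members on other chromosomes had medians of -0.71 at day 8 and 0.69 at day 14. The part of this chromosome difference in the values of Usp18 and Irf9 was not tested.

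In ES cells each genotype had a single library, so no test was made. Of the 20 members with at least 10 counts over both ES cell libraries, 4 were at least 2-fold higher in null cells (11.8% of 14743 genes compared) and 2 were at least 2-fold lower (6.15%). Xaf1 had 124 counts in null and 5 in wild type ES cells, a CPM ratio of 12.7 with a 95% counting interval of 5.31 to 39.9. The interval covers counting error only, as do all the others here. Tap1, Herc6 and Ifit2 were the other higher members, each with 2 or 3 counts in wild type and 12 to 19 in null cells, and their intervals included 1. Oasl2 had 4 counts in null and 21 in wild type ES cells, 10.2-fold lower in null with an interval of 3.45 to 41.0. Ifitm3 had 284 counts in null and 529 in wild type ES cells, 3.63-fold lower with an interval of 3.14 to 4.21. Oas3 was high in both, at 17.1 CPM in null libraries against 20.5 CPM in wild type ES cells.

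The step from ES cells to day 8 cultures brought losses and gains, some called in both genotypes. These fits take the lone ES cell library of each genotype to vary like the other groups. In null cultures 5 of the 35 tested members were called higher at day 8 than at day 0 and 4 lower, where 19% of tested genes were called higher and 18.6% lower (37.7% in either direction). In wild type cultures 9 were called higher and 3 lower (21.2% and 19.3% of tested genes, 40.5% in either direction). These shares of members were near or below those of all genes. Without the first null day 8 library 4 members were called in null cultures in all, and without the first wild type day 8 library 7 in wild type cultures. The calls of B2m, Ifit2 and Oas3 were kept in both genotypes whichever of the 8 day 8 and day 14 libraries was left out, as were those of Ifit3, Ifitm3 and Trim25 in wild type cultures. The median log2 fold change was 0.03 in null and 1.63 in wild type cultures, and 1.07 in wild type cultures with 9 tested members that had no counts in the wild type ES cell library set to their bounds and 3 with too few counts for a fold left out.

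Oas3 fell to 6 and 3 counts in null libraries at day 8, against 101 at day 0 (log2 fold change -3.83 with SE 0.68, adjusted p = 0.000864), and to 8 and 2 counts in wild type libraries, against 62 at day 0 (log2 fold change -3.72 with SE 0.68, adjusted p = 0.00097). It had the largest called loss among the members in both genotypes and stayed at 4 to 8 counts a library at day 14. Trim25 fell to 143 and 149 CPM in null libraries at day 8, against 268 CPM at day 0 (adjusted p = 0.0195), and to 124 and 115 CPM in wild type libraries, against 299.9 CPM (adjusted p = 0.00171). Ifitm3 fell in both as well, from different starts, with 22.7 and 29.6 CPM in null libraries at day 8, against 48.1 CPM at day 0 (log2 fold change -0.88 with SE 0.30, adjusted p = 0.0357), and log2 fold change -1.97 in wild type (adjusted p = 0.00019).

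B2m, Ifit2, Ifi35 and Rsad2 rose in both genotypes. B2m was at 12.9 CPM in null ES cells and 13.9 CPM in wild type ES cells, below all later libraries (log2 fold change 1.57 with SE 0.30, adjusted p = 0.00159 in null; log2 fold change 2.01 with SE 0.32, adjusted p = 0.000406 in wild type). Ifit2 had 19 counts in null ES cells and 3 in wild type ES cells (adjusted p = 0.0055 in null and 0.000514 in wild type). Rsad2, with no ES cell counts, was at least 9.84-fold higher at day 8 in null cultures and at least 6.20-fold higher in wild type cultures. Ifi35, also at 0 in ES cells, was at least 4.40-fold higher in null and at least 3.18-fold higher in wild type cultures. Called in wild type but not in null cultures were Ifih1, Ifit1, Ifit3 and Ifi44, and called in null but not in wild type cultures was Usp18, at least 2.85-fold higher. Xaf1 was called in opposite directions, falling in null cultures to 4.35 and 8.35 CPM, against 21.0 CPM at day 0 (log2 fold change -1.74 with SE 0.46, adjusted p = 0.0103), and rising in wild type cultures to 7.99 and 7.33 CPM, against 1.65 CPM (log2 fold change 2.19 with SE 0.71, adjusted p = 0.0275). The null call of Xaf1 was lost without the first null day 8 library, and the wild type call without either wild type day 8 library. The interaction of genotype with this step called 0 members (0.0316% of tested genes, 0.019% higher and 0.0126% lower), and Xaf1 had the lowest adjusted p, 0.116. At an unadjusted p under 0.05 it gave 1 higher and 4 lower members, where 8.88% of all tested genes passed in either direction, and DESeq2 called 0.

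The genes upstream of the members were read from lists of the same pathway. Of 21 interferon genes, 11 had a row, and 9 of these, Ifnb1 among them, had 0 counts in all 10 libraries, which allows up to 3 counts a library. Ifnk had 18 counts over the 10 libraries and Ifna13 had 2, and no more were seen of any interferon with a row.

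Of the receptor and signalling genes reported here, Ifnar1 was at 70.4 and 64.5 CPM in null libraries against 67.2 and 62.5 CPM in wild type libraries at day 14, and at 59.7 and 66.5 CPM in null libraries against 64.2 and 62.3 CPM in wild type libraries at day 8. Ifnar2 was at 109 and 151 CPM in null libraries against 136 and 155 CPM in wild type libraries at day 14. Ifnar2 rose between days 8 and 14 in both genotypes (adjusted p = 0.0348 in null and 0.0237 in wild type). Stat3, named after its values were seen, also rose in both (log2 fold change 0.97 with SE 0.20, adjusted p = 0.0114 in null cultures, and adjusted p = 0.00668 in wild type). Jak1 rose in null cultures (log2 fold change 0.62 with SE 0.17, adjusted p = 0.0496) with nearly the same log2 fold change in wild type cultures (0.62, adjusted p = 0.0713). Ifngr1, a chain of the type II receptor, was the one gene of these lists called between genotypes over the mean of days 8 and 14 (log2 fold change -1.19 with SE 0.31, adjusted p = 0.0489). It held 9.29 and 6.43 CPM in null libraries against 13.7 and 19.7 CPM in wild type libraries at day 14, and 3.87 and 7.19 CPM in null libraries against 16.3 and 10.7 CPM in wild type libraries at day 8, lower in null cultures at each day.

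Of the nucleic acid sensing genes reported here, Tlr7 and Zbp1 rose between days 8 and 14 in null cultures and are named after their values were seen, as are those that follow. Zbp1, a sensor of unusual nucleic acid helices, held 26 and 8 counts at day 14 and 1 and 0 at day 8 in null libraries, and 1 and 1 at day 14 against 4 and 1 at day 8 in wild type libraries, so its counts stood apart in day 14 null cultures (adjusted p = 0.0427). Tlr7 and Traf3 rose in wild type cultures. Of 12 tested antigen presentation genes, Tapbp and H2-D1 rose in null cultures (adjusted p = 0.0129 and 0.029), and in wild type cultures 2 genes reached an unadjusted p under 0.05 and neither passed after adjustment. H2-D1 shares sequence with other class I genes and its counts are uncertain. Of 8 tested negative regulators, Ptpn6 alone rose in null cultures. Aim2, a sensor of DNA in the cytoplasm, was called in the interaction of genotype with the step from day 0 to day 8 (log2 fold change 3.33 with SE 0.48, adjusted p = 0.0481). It was at 15.1 CPM in the single null ES cell library against 144 CPM in the single wild type one, and between 9.30 and 21.3 CPM in all later libraries. The call of Aim2 was lost without the first wild type day 8 library and with the replicate number as a block.

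Markers of other cell types also differed between the groups. The summed level of 14 macrophage markers was 227 and 265 CPM in null libraries at day 14 and 23.2 and 19.0 CPM at day 8, and 583 and 689 CPM at day 14 against 142 and 78.9 CPM at day 8 in wild type libraries. All 14 were called higher at day 14 than at day 8 in null cultures and 10 of 14 in wild type cultures. Between genotypes the macrophage markers went the other way from the members at day 14 and the same way at day 8. At day 14 all 14 had a negative log2 fold change of null over wild type and 1 was called lower. The summed level was 2.59-fold lower, while the summed level of the 39 members was 1.70-fold higher. At day 8, 13 of the 14 were negative and 4 were called lower. Their summed level was then 5.22-fold lower in null cultures, and that of the 39 members was 1.17-fold lower, with libraries that overlapped. In ES cells 8 of the 14 macrophage markers were at 0 in the null library and 11 in the wild type library, Csf1r in both, and 2 and 10 were at 0 in the day 8 null libraries. The first day 14 null library, where the members were highest, had the lower macrophage sum. The 6 lymphoid markers together stayed under 1 CPM in each library, and a set of visceral endoderm markers summed to 96.9 and 25.5 CPM in day 14 null libraries and 112 and 96.2 CPM in day 14 wild type libraries. The 8 ES cell markers summed to 61.4 and 123 CPM in day 8 null libraries against 45.04 and 53.3 CPM in day 8 wild type libraries, and 2 of them were called higher in null cultures. Between days 8 and 14 in null cultures 4 of 8 fibroblast markers were called higher and 1 lower, and 4 of 7 tested endothelial markers were called lower. In wild type cultures 2 fibroblast markers were called higher and 1 lower, and 1 endothelial marker was called lower. The part of these cell types in the members' levels was not tested.

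**Figure D5:**
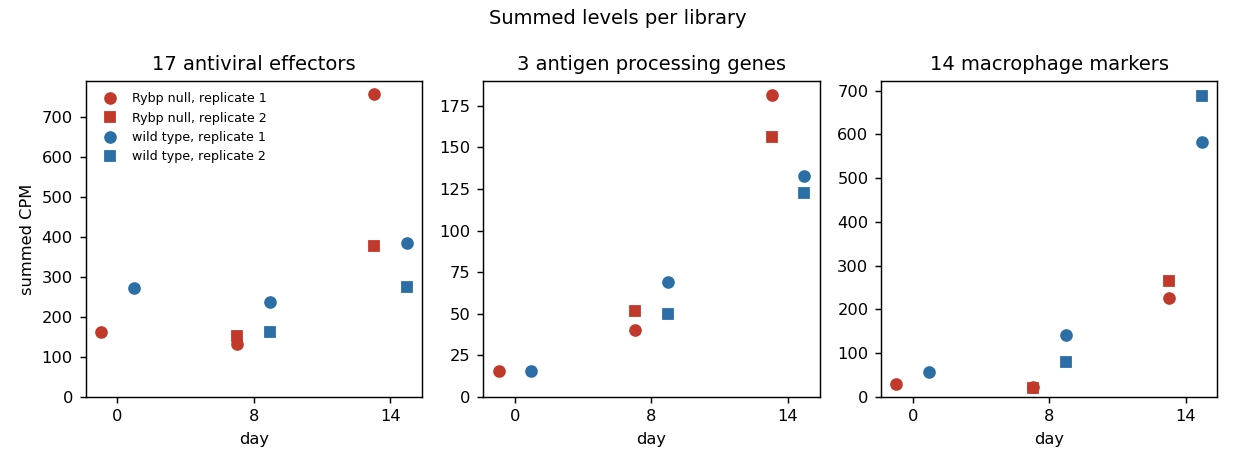
Summed CPM of 17 antiviral effectors, 3 antigen processing genes and 14 macrophage markers in each library by day, Rybp null left of wild type, with a circle for replicate 1 and a square for replicate 2. At day 14 the null libraries lie high for the antigen processing genes and low for the macrophage markers, and the first null library stands alone for the effectors.

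The summed level of the effectors was 758 and 378 CPM in null libraries against 385 and 274 CPM in wild type libraries at day 14, groups that overlapped. That of the antigen processing genes was 182 and 156 CPM in null libraries against 133 and 123 CPM in wild type libraries at day 14, without overlap, and most of it was B2m. That of the signalling factors was 171 and 87.7 CPM in null libraries against 58.7 and 48.8 CPM in wild type libraries, also without overlap. At day 8 the PARP complex genes summed to 10.9 and 20.7 CPM in null libraries against 27.8 and 24.0 CPM in wild type libraries, and the effectors to 132 and 152 CPM in null libraries against 238 and 163 CPM in wild type libraries, in both cases lower in null cultures in every library.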

How the data were processed

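The deposited table held whole-number read counts per Ensembl gene for 10 libraries, made by the authors and not normalized. The labels' protocols name TRIzol for extraction, and kits of NuGEN (Ovation, then Encore) for the libraries. Per the submitters' processing notes, TopHat, HTSeq, DESeq and mm9 were used. No version, strand setting or counting option was found in the labels. Without them, reads of overlapping, antisense or near-identical genes cannot be told apart; exons of 17 members overlap another gene in GENCODE vM21, which also gave exonic lengths and chromosomes.

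Symbols came from a gene name table (30946 of 36191 IDs matched). Counts were fitted with edgeR 4.0.16 in R 4.3.3: filterByExpr at a minimum count of 10, TMM scaling, 6 genotype-by-day groups, robust quasi-likelihood tests (two-sided), and Benjamini-Hochberg adjustment over 15819 genes within each of 9 comparisons. Residual degrees of freedom were 4 and the common biological coefficient of variation was 0.214. SEs are the absolute log2 fold change over the root of F and restate the unadjusted p. Folds against 0 counts use a floor of 3 counts over the group; exact 95% intervals cover counting error only. The fit was also run on simulated counts, which gave all genes the same spread and changed no gene with few reads. That run therefore did not cover members with few reads. Tables were made with Python 3.11.15 and pandas 2.3.3.

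The members, pathway lists and marker lists were chosen with earlier results of these data known. Library values are given for members called in any comparison, the 8 most abundant, and Ifit1, Isg15, Irf7, Irf9, Stat2, Psmb8, Tap1 and B2m; other members appear as means or counts. Alternatives were DESeq2 1.42.0, its size factors, library totals alone, TMM without chromosomes 1, 6, 8, 14 and Y, no filter, no robust dispersion, days 8 and 14 alone, a replicate block, and each day 8 and day 14 library left out. Some genes of the receptor, signalling and nucleic acid sensing lists are not reported here, so no count of calls is given for those lists.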

Additional observations from a re-analysis of the deposited data

Results flagged for a closer look

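Ifit1, Oasl2, Isg15, Ifit3, Dtx3l and B2m stood out because the order of the libraries differed between the 2 days. Both null libraries were below both wild type libraries at day 8 and above both at day 14. The extra log2 change from day 8 to day 14 in null over wild type cultures was 8.90 for Ifit1, 5.13 for Oasl2, 2.92 for Isg15, 2.60 for Ifit3, 1.77 for Dtx3l and 0.94 for B2m. The difference was tested with the genotype-by-day interaction in edgeR's quasi-likelihood fit and missed the threshold for each of them, with adjusted p-values of 0.388, 0.672, 0.721, 0.736, 0.753 and 0.718. In the same fit none of these genes was called between genotypes at day 8 or at day 14. For Dtx3l the nearest libraries of the 2 genotypes were almost level on each day. Among all tested genes 1.95% had this pattern. The value for Ifit1 rests on day 8 null libraries with no counts and depends on the prior count of the fit.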

How the results depend on the processing

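Counts are of called members, with the reported count in parentheses. With no filter on low counts, which also adds genes with few reads, 2 members were called between null and wild type at day 8 (0 reported), 8 at day 14 (0), 4 over the mean of both days (0), 2 in the interaction of days 8 and 14 (0), 1 in that of days 0 and 8 (0), and 6 between days 8 and 14 in wild type (2). All of these members were among the 35 tested in the reported fit. Calls over all genes rose in this setting too, with those at day 8 and at day 14 given below. They were 1396 over the mean of both days (697 reported), 65 in the interaction of days 8 and 14 (0) and 273 in that of days 0 and 8 (5). Between days 8 and 14 in wild type they were 1244 (639). DESeq2 called 1 at day 8 and 1 at day 14, and TMM without genes of chromosomes 1, 6, 8, 14 and Y called 1, Irf9, at day 14. The causes were not tested. Leaving out each of the 8 day 8 and day 14 libraries in turn gave 0 to 1 calls at day 8, 0 to 1 at day 14 and 0 to 2 for their mean. It gave 7 to 14 between days 0 and 8 in wild type (12 reported), 4 to 12 in null (9), 0 to 4 between days 8 and 14 in wild type (2) and 10 to 20 in null (19). The lowest of these came without the first wild type day 8 library (7), the first null day 8 library (4), the second wild type day 8 library (0) and the first null day 14 library (10). Both interactions kept 0 member calls throughout. Settings added after seeing the data left out both first or both second day 14 libraries. Without the first ones, 8 members were called between days 8 and 14 in null, 1 in wild type, and 1 at day 8 between genotypes; without the second ones, 2 at day 8 and 1 in the interaction of days 8 and 14, Oasl2.

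The labels do not say whether equal replicate numbers mark a shared culture or batch. Differences between replicates correlated between 0.16, for the day 14 groups of both genotypes, and -0.21 across groups, so the numbers were not taken as pairs. With the replicate number as a block, 2 members were called at day 8, 1 at day 14, 17 between days 8 and 14 in null and 2 in wild type; with all libraries in the block, 16 between days 0 and 8 in wild type and 8 in null. The correlation of -0.21 was between the null groups. With the day 8 null numbers crossed, a setting that was not planned, 20 members were called between days 8 and 14 in null. Of single genes, 2373 combinations of result and setting stayed on the same side of the threshold, 263 weakened and 80 strengthened, and 0 reversed in a called value. These genes were members with an unadjusted p under 0.05 in the reported fit, and called genes of the other pathway lists. Members with a higher unadjusted p were left out of this count. Over all genes, calls between genotypes also moved: from 200 at day 8 to 28 without the first wild type day 8 library and 708 with no filter, and from 97 at day 14 to 14 without the second wild type day 14 library and 637 with no filter. Depth limits members with under about 10 counts a group, among them Ifit1, Mx2 and Bst2 in day 8 null cultures.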
